A study of Homo sapiens with 6 samples.

Results

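The FGF receptors and ligands described here are 10 genes, namely the receptors FGFR1, FGFR2, FGFR3 and FGFR4, the secreted ligands FGF1, FGF2, FGF5 and FGF7, and the intracellular factors FGF11 and FGF13. They were read through every array probe whose accession belongs to one of them, which gave 18 of the 50599 gene probes on the array, for 10 of 20499 named genes. RNA of the A673 line was read on 6 Agilent arrays in 1 colour. A673 is an Ewing sarcoma cell line driven by the EWS/FLI1 fusion protein. There were 3 arrays of A673/TR/empty cells, the control, and 3 arrays of A673/TR/LOX-PP cells. Both lines carry the tetracycline repressor (TR). The control carries the empty vector, and the other line a lentiviral vector that makes LOX-PP, the propeptide of lysyl oxidase, when doxycycline is given. The labels give doxycycline at 1 µM for 72 h for all 6 samples, while the methods name it for the LOX-PP cells without settling whether the control cells received it. The methods describe 3 separate experiments, and stable clones were selected for these lines. Whether 1 clone or several were put on the arrays is not given in the sources used here. The clone and the propeptide therefore cannot be told apart in this comparison. If the control cells received no doxycycline, the drug cannot be told apart from them either.

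Fibroblast growth factors are signalling proteins that bind receptor tyrosine kinases on the cell surface together with heparan sulfate. The activated receptor signals through the adaptor FRS2 to the RAS and ERK cascade, and targets of that cascade such as the Sprouty proteins and dual-specificity phosphatases limit the signal in turn. FGF11 and FGF13 belong to a separate branch of the family, the FGF homologous factors, which are not secreted, do not act as ordinary receptor ligands and are best known for binding voltage-gated sodium channels in neurons. Ewing sarcoma cells have been described as responsive to FGF2. The comparison asks how the transcripts of this pathway stood in cells made to express LOX-PP against cells with the empty vector.

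Of the 10 genes, FGF13 was the one that passed the test, and it was lower in the LOX-PP cells. That is 1 of 13 tested probes, beside 5.67% of all tested probes. No receptor and no secreted ligand passed it. FGFR2 was higher in all LOX-PP arrays than in all control arrays, and FGF1 and FGF11 were lower without overlap, but none of the last 3 passed after adjustment. Groups without overlap were seen in 4 of the 13 probes, near the 29.5% of all tested probes. Among 64 other tested genes of FGF signalling, 8 passed the test, beside 3.71% of all genes higher and 3.37% lower. SULF2, SDC1 and FGF19 were higher in the LOX-PP cells, and GPC4, SDC2, FGFBP3, SPRY1 and IL17RD were lower. SULF2, FGF19, SDC2 and IL17RD were not above background on some of the arrays, so their sizes are uncertain.

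The FGF13 gene has more than one start, and the 250 bases before each of its 2 starts in the RefSeq table (GRCh38.p14) are shown because it is the member that passed the test. Both are on the minus strand and written 5′ to 3′. The probe does not tell which start was used. The letters GGAAGGAA and CCGGAAGT (forms of the ETS site) and TGACTCA (the AP-1 site) were searched on both strands and would be in capitals. None is in either stretch.
FGF13, chrX:139205024-139205273: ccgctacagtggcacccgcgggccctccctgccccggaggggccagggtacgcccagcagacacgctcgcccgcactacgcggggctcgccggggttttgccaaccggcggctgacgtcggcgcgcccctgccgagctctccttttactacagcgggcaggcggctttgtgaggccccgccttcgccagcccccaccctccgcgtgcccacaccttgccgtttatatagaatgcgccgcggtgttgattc
FGF13, chrX:138739354-138739603: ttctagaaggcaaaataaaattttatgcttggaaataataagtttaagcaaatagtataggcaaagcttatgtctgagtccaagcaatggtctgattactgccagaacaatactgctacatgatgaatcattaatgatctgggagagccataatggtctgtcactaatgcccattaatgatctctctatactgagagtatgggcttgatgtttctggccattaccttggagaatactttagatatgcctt
The first stretch is 70.4% G and C with 29 CG pairs, and the second is 36.4% G and C with 0 CG pairs, beside a median of 58% over all 35116 promoters of the table. Over those promoters, GGAAGGAA is present in 3.06%, CCGGAAGT in 3.42% and TGACTCA in 4.20%. The table has 21 entries for the genes other than FGFR1, which was not searched, and of these 1 holds TGACTCA and 0 hold either ETS form. That entry is a start of FGF1 on chromosome 5, minus strand, shown with the match in capitals, which is the site read from the opposite strand.
FGF1, chr5:142644240-142644489: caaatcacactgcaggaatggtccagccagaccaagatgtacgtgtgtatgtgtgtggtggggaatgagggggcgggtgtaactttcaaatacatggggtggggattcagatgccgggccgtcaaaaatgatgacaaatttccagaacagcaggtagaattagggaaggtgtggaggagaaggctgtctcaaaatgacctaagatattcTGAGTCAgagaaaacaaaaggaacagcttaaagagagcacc
A match of letters is a description of the sequence and not a bound site.

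The level given for each probe is the log2 of its background-corrected signal minus the 75th percentile of its array, so that 0 is a bright probe and negative values are dimmer. Levels of different probes cannot be set against each other, because each probe binds its target with its own strength. A probe was tested where no fewer than 3 of the 6 arrays flagged its spot as well above background, and 13 of the 18 probes met this, with at least 1 for each of the 10 genes. On all 6 arrays, 11 probes of 9 genes were above background, and 2 probes, both of FGF5, were above background on none. The share of all gene spots above background ran from 56.9% to 74.8% over the control arrays and from 59.3% to 74.1% over the LOX-PP arrays, and precision is limited by the number of arrays. LOX-PP replicate 1 was on a slide and in a scan of its own, apart from the other 5 arrays. All 10 Ewing sarcoma markers, among them NR0B1, CD99 and NKX2-2, were above background on every array, and 1 of them, CCK, was lower in the LOX-PP cells. Of 5 tested fibroblast markers, COL1A2 and LUM were lower, LUM being above background on 1 of 3 LOX-PP arrays. The rest did not pass. COL3A1 stood at -1.49 and COL1A1 at 0.53, both without overlap, and DCN at -0.80 with overlap. Their adjusted p were 0.0791, 0.175 and 0.541 by limma. None of the 11 tested epithelial, leukocyte and endothelial markers passed the test. The part of either line's makeup in the results was not tested. The LOX probe read -0.09, 0.36 and 0.11 in the control and -0.12, -0.68 and -1.29 in the LOX-PP arrays, and since the files do not say which part of the transcript it covers, it does not check the construct.

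**Figure D1:**
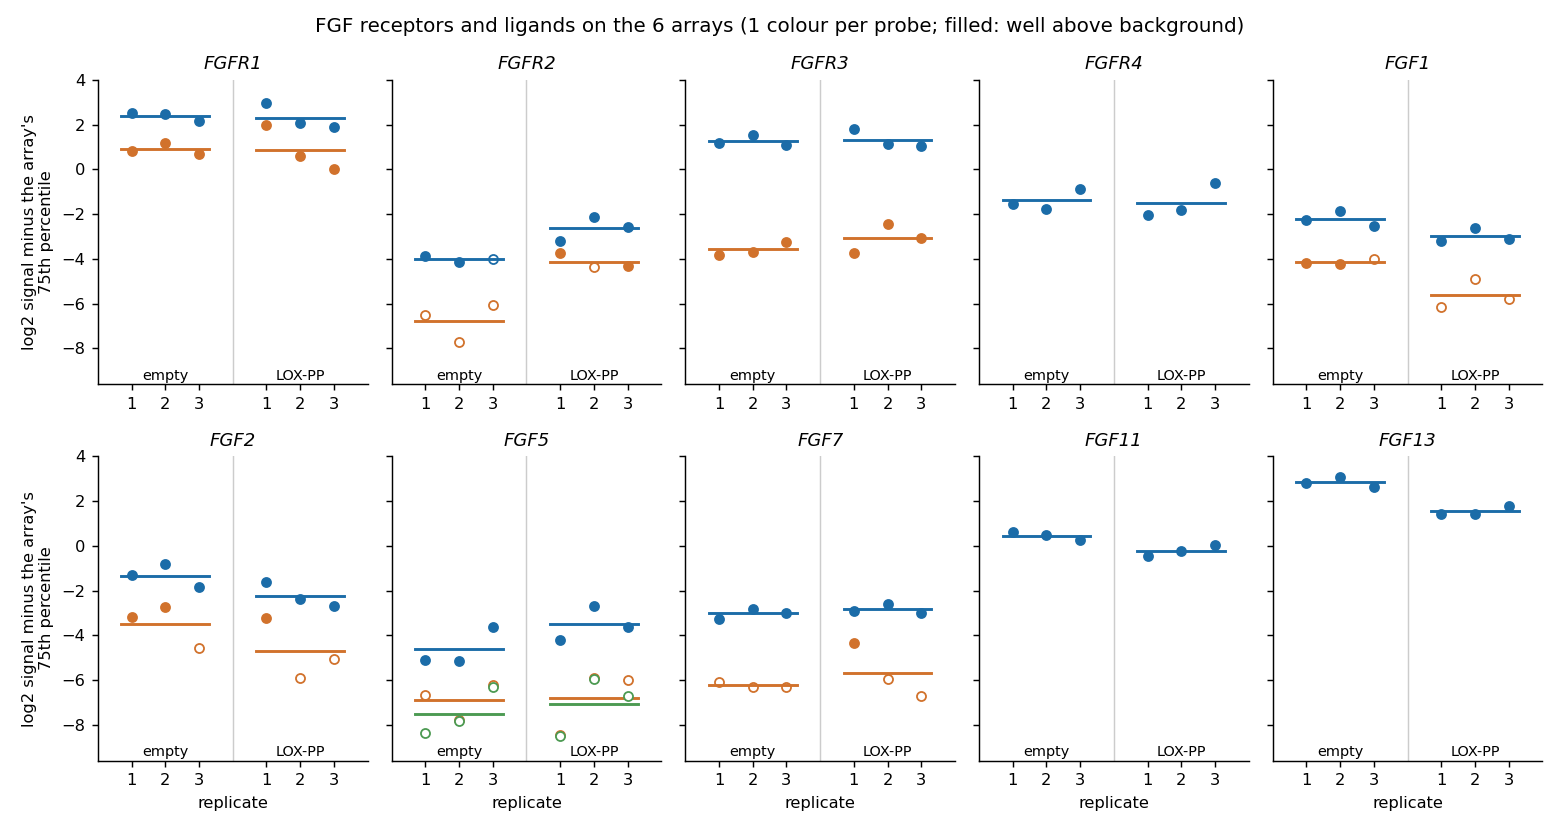
Log2 signal minus the 75th percentile of the array (vertical axis) for every probe of the 10 genes on each of the 3 control (empty) and 3 LOX-PP arrays (horizontal axis, by replicate). Each colour is a probe, bars are group means, and filled points are spots well above background. The FGF13 points lie between 2.64 and 3.09 in the control and between 1.41 and 1.80 in the LOX-PP arrays.

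Differences between the groups are given as LOX-PP minus control on the log2 scale, relative to the median of all 32606 tested probes, which itself stood at 0.13. That median moved to -0.03 under quantile normalization. Each p-value is from limma, which tested the difference before this median was taken off. In that fit 1848 probes, 5.67% of those tested, had an adjusted p under 0.05. Without control replicate 1 that count was 407, without control replicate 2 it was 445, without LOX-PP replicate 2 it was 893 and without LOX-PP replicate 3 it was 1045. At an unadjusted p under 0.05 there were 4 of the 13, beside 21.3% of all tested probes. The groups did not overlap for 4 of the 13, 1 higher and 3 lower, beside the share of 29.5% given above, so it was near the general rate. The median difference of the 13 probes was -0.20, and 9 differences were under that of the median probe.

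FGF13, on chromosome X, was measured by 1 probe, above background on every array. Its level was 2.82, 3.09 and 2.64 in the control arrays and 1.41, 1.44 and 1.80 in the LOX-PP arrays. All 3 LOX-PP arrays were below all control arrays, and the group means of 2.85 ± 0.23 (SD, n = 3) and 1.55 ± 0.22 (SD, n = 3) were several SDs apart. FGF13 fell by 1.42 relative to all probes (95% interval -1.98 to -0.87), which is 2.68-fold, with an adjusted p of 0.0265 by limma. The named genes of chromosome X had a median difference of 0.03, beside -0.09 over all named genes. The difference stayed between -1.60 and -1.15 in 15 alternatives, but the call was lost in 7 of them. The adjusted p rose to 0.145 without control replicate 1, 0.137 without control replicate 2, 0.0514 without control replicate 3 and 0.0793 without LOX-PP replicate 2. An antisense gene, FGF13-AS1, had a probe of its own, above background on 3 of the 6 arrays, with group means of -4.98 ± 0.30 (SD, n = 3) and -5.24 ± 0.91 (SD, n = 3) that overlapped (adjusted p = 0.79 by limma).

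FGF11, the other intracellular factor among these genes, lies on chromosome 17. It read 0.61, 0.50 and 0.26 in the control and -0.45, -0.23 and 0.02 in the LOX-PP arrays, above background throughout. The LOX-PP arrays were all lower, with the closest pair of arrays 0.26 against 0.02. The difference was -0.80 (95% interval -1.34 to -0.26), and the adjusted p of 0.151 by limma did not pass the threshold in the main analysis or in any of 15 alternatives. The remaining members of this branch, FGF12 and FGF14, were tested too. FGF12 differed by -0.39 (95% interval -0.99 to 0.21) and FGF14 by -0.59 (95% interval -1.49 to 0.31), with adjusted p of 0.599 and 0.531 by limma. FGF14 lies on chromosome 13, whose named genes had a median difference of -0.83, lower than that of FGF14 itself. Of the 4 intracellular factors FGF13 alone passed the test. Whether FGF13 differed from the others in its change was not tested.

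**Figure D2:**
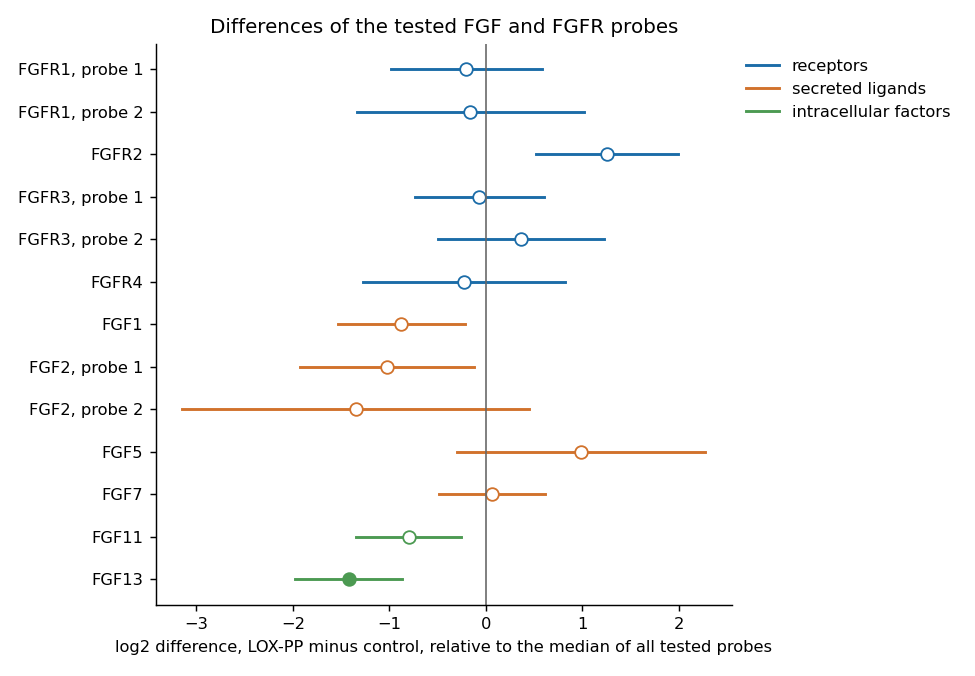
Difference of each of the 13 tested probes, LOX-PP minus control, on the log2 scale relative to the median of all tested probes (horizontal axis), with 95% intervals from limma. Colours mark receptors, secreted ligands and intracellular factors, and the filled point, FGF13 at -1.42, is the one with an adjusted p under 0.05.

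Of the receptors, FGFR1, a receptor for many of the secreted ligands, was measured by 2 probes, above background on all arrays. The first read 2.52, 2.45 and 2.18 in the control and 2.98, 2.05 and 1.89 in the LOX-PP arrays. The second read 0.81, 1.18 and 0.68 in the control and 1.98, 0.59 and 0.00 in the LOX-PP arrays. In both probes LOX-PP replicate 1 was the highest of the 6 arrays and LOX-PP replicate 3 the lowest, so the groups overlapped. The differences were -0.20 (95% interval -0.98 to 0.58, adjusted p = 0.926) and -0.16 (95% interval -1.34 to 1.02, adjusted p = 0.979) by limma. Without LOX-PP replicate 1 they were -0.57 and -0.76, and under quantile normalization 0.07 and 0.08, so no direction can be given for FGFR1. The named genes of chromosome 8, where it lies, had a median difference of -0.42.

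FGFR2, a receptor with splice forms of epithelial and mesenchymal tissues, was dim in both of its 2 probes. The tested probe read -3.87, -4.16 and -4.02 in the control, where the last was not above background, and -3.21, -2.12 and -2.56 in the LOX-PP arrays. Every LOX-PP array was higher, and the difference was 1.25 (95% interval 0.52 to 1.99), or 2.39-fold. Its adjusted p of 0.0525 by limma was just outside the threshold. Without LOX-PP replicate 1, the array on its own slide, the difference was 1.51 with an adjusted p of 0.0188, the same as with the slide as a block. The other 12 of 14 alternatives did not pass, with adjusted p from 0.0507 to 0.213 by limma or the methods' t-test, and the difference was 0.83 under normexp. The second probe was not tested, since it was above background on 0 control arrays and 2 LOX-PP arrays. It read -6.51, -7.71 and -6.07 in the control and -3.75, -4.35 and -4.32 in the LOX-PP arrays, of which replicate 2 was not above background. On a control array the lowest signal among probes well above background was -3.99, higher than LOX-PP replicates 2 and 3. No size of a difference is therefore given for this probe, and its order is not set beside that of the tested probe. Which splice forms the probes read is not given in the files.

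FGFR3, on chromosome 4, had 2 probes, and both were above background on all arrays. The brighter one read 1.19, 1.53 and 1.08 in the control and 1.81, 1.11 and 1.06 in the LOX-PP arrays. The dimmer one read -3.81, -3.68 and -3.23 in the control and -3.73, -2.45 and -3.06 in the LOX-PP arrays. The groups overlapped in both. The differences were -0.07 (95% interval -0.74 to 0.61, adjusted p = 0.93) and 0.37 (95% interval -0.49 to 1.23, adjusted p = 0.485) by limma, and the first turned to 0.19 under quantile normalization. FGFR4, on chromosome 5 and known from liver as the receptor for FGF19 with the co-receptor KLB, read -1.53, -1.78 and -0.86 in the control and -2.06, -1.81 and -0.60 in the LOX-PP arrays. Replicate 3 was the highest array in either group, and the difference of -0.23 (95% interval -1.27 to 0.82, adjusted p = 0.925 by limma) was smaller than the SDs of 0.47 and 0.78. It turned to 0.02 with the slide as a block. FGFRL1, a receptor-like protein that binds FGF but has no kinase, differed by 0.15 (95% interval -0.75 to 1.05, adjusted p = 0.725 by limma). The 95% intervals of FGFR1, FGFR3 and FGFR4 reached down to -1.34 and up to 1.23, so they do not show that the levels were alike.

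Of the secreted ligands, FGF1 (acidic FGF), which binds all the FGF receptors, lies on chromosome 5. Its tested probe read -2.28, -1.85 and -2.55 in the control and -3.19, -2.62 and -3.11 in the LOX-PP arrays. All LOX-PP arrays were lower, though the nearest pair, -2.55 and -2.62, were close. The difference was -0.88 (95% interval -1.54 to -0.22), with an adjusted p of 0.183 by limma, and it did not pass in any of 15 alternatives. The second FGF1 probe, above background on 2 control arrays and 0 LOX-PP arrays, was not tested. It read -4.17, -4.24 and -4.03 in the control, where the last was not above background, and -6.15, -4.91 and -5.81 in the LOX-PP arrays. On a LOX-PP array the lowest signal among probes well above background was -3.70, higher than all these control values. No size of a difference is therefore given for it. The second probe did not measure FGF1 in the LOX-PP cells, so its order between the groups is not set beside that of the tested probe.

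FGF2 (basic FGF), a mitogen of mesenchymal cells, lies on chromosome 4 and had 2 tested probes. The brighter read -1.31, -0.83 and -1.84 in the control and -1.61, -2.36 and -2.70 in the LOX-PP arrays. The dimmer read -3.17, -2.74 and -4.57 in the control and -3.21, -5.90 and -5.05 in the LOX-PP arrays, and was above background on 2 control arrays and on LOX-PP replicate 1. In both probes LOX-PP replicate 1 lay within the control range and the other LOX-PP arrays lay below it. The differences were -1.02 (95% interval -1.92 to -0.12, adjusted p = 0.235) and -1.35 (95% interval -3.15 to 0.45, adjusted p = 0.403) by limma. Without LOX-PP replicate 1, the brighter probe stood at -1.37 and the dimmer at -2.14, with adjusted p of 0.0927 and 0.105 by limma. Other arrays moved them the other way, the dimmer probe to -0.68 (adjusted p = 0.687) without LOX-PP replicate 2 and the brighter to -0.71 (adjusted p = 0.574) without control replicate 2. The dimmer stood at -0.74 under normexp, and neither probe passed in any alternative. The named genes of chromosome 4 had a median of -0.28.

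FGF5, on chromosome 4 and known as a regulator of the hair cycle, had 3 probes. The tested one, for a short transcript variant (NM_033143), read -5.11, -5.14 and -3.60 in the control and -4.21, -2.68 and -3.61 in the LOX-PP arrays, above background throughout. The groups overlapped through control replicate 3, and the difference of 0.99 (95% interval -0.30 to 2.28) had an adjusted p of 0.292 by limma. The other 2 FGF5 probes, for the transcript NM_004464, were not above background on any of the 6 arrays, with group means of -6.88 ± 0.82 and -7.49 ± 1.07 in the control and -6.78 ± 1.43 and -7.05 ± 1.29 in the LOX-PP arrays (SD, n = 3). FGF7 (keratinocyte growth factor), a ligand of the epithelial form of FGFR2, lies on chromosome 15. Its tested probe read -3.25, -2.80 and -3.01 in the control and -2.90, -2.59 and -2.99 in the LOX-PP arrays. The groups overlapped, with a difference of 0.07 (95% interval -0.48 to 0.62, adjusted p = 0.682 by limma). That value is uncertain as a reading of FGF7, because the array also names the near-identical copies FGF7P3 and FGF7P6, whose 3 probes were above background on all arrays and did not pass the test. The second FGF7 probe was above background on LOX-PP replicate 1 alone.

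The other FGF ligands were largely dim or undetected. Of 11 other secreted ligand genes 6 were tested and none passed, with differences from -0.19 for FGF18 to 0.81 for FGF3. FGF3 read -4.30, -4.10 and -4.49 in the control and -3.38, -3.59 and -3.11 in the LOX-PP arrays, without overlap, with an adjusted p of 0.0684 by limma. Of the hormone-like ligands, which act at a distance from their source, FGF19 rose and FGF21 was tested without passing, while the third was not tested. FGF19, which is secreted by the gut and limits bile acid synthesis in the liver, read -5.50, -5.70 and -6.17 in the control, where 1 of 3 arrays was above background, and -3.96, -2.99 and -1.38 in the LOX-PP arrays, where all were. All LOX-PP arrays were higher, though they spread over more than 2 log2 units. The difference was 2.89 (95% interval 1.42 to 4.35, adjusted p = 0.0393 by limma), the call was lost in 9 of 14 alternatives, and the difference was 1.85 under normexp background correction. Leaving out any control array or LOX-PP replicate 2 gave an adjusted p from 0.0915 to 0.153 by limma.

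The remaining genes of the pathway were taken from 8 lists of 76 genes, each read through the probe with the highest mean signal. Of these 64 were tested, and 8 passed, 3 higher and 5 lower. Over all 16554 named genes tested, 3.71% were higher and 3.37% lower by the same rule. The median difference of the 64 genes was -0.22, with 41 below the median of all probes, beside -0.09 for all named genes. SULF2 alone of the 8 passed without control replicate 1, and also without control replicate 2.

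**Figure D3:**
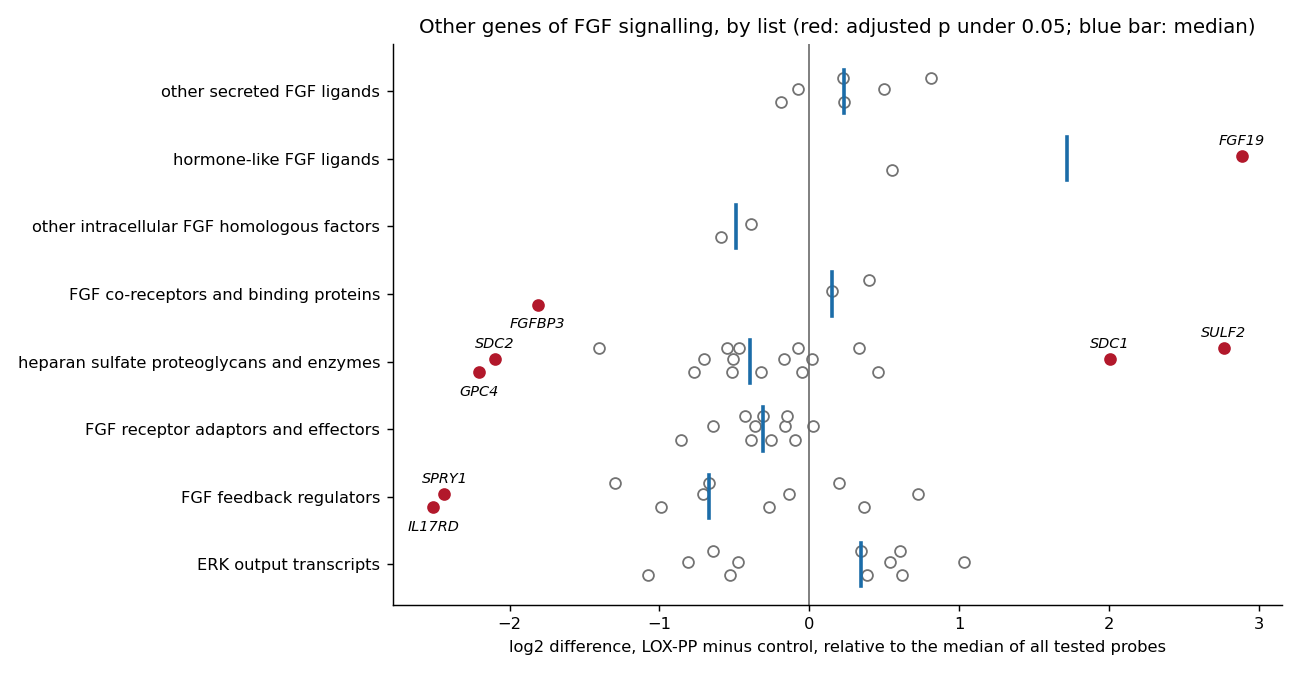
Difference of each tested gene of the 8 other FGF lists, LOX-PP minus control, on the log2 scale relative to the median of all tested probes (horizontal axis), by list (vertical axis). Red points with names had an adjusted p under 0.05, and blue bars are the medians of the lists. The heparan sulfate list, with 18 of the 64 tested genes, holds 4 of the 8 named ones, 2 on either side.

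Heparan sulfate, the sugar chain that FGF needs to hold its receptor, was represented by 18 genes of its carriers and enzymes, the longest of the lists. All 18 were tested, 2 rose, 2 fell and 14 did not pass, beside 3.71% of all genes higher and 3.37% lower. Whether the list differed from the others was not tested. SULF2, an enzyme that removes sulfate groups from heparan sulfate outside the cell, read -4.62, -4.47 and -5.68 in the control and -2.34, -1.95 and -1.80 in the LOX-PP arrays. Every LOX-PP array was well above every control array, of which the third was not above background. SULF2 rose by 2.77 (95% interval 1.90 to 3.63, adjusted p = 0.00788 by limma), and of 14 alternatives only the methods' t-test, with an adjusted p of 0.0683, lost the call.

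SDC1 (syndecan 1), a transmembrane carrier of heparan sulfate, read -1.82, -1.80 and -1.08 in the control and 0.44, 0.49 and 0.77 in the LOX-PP arrays. It rose by 2.01 (95% interval 1.36 to 2.66, adjusted p = 0.00834 by limma), or 4.02-fold, and the adjusted p was 0.0638 without control replicate 1 and 0.0564 without control replicate 2. SDC2 (syndecan 2), the syndecan best known from mesenchymal cells, read -3.18, -2.76 and -3.64 in the control and -5.54, -4.36 and -5.60 in the LOX-PP arrays. The 2 syndecans moved in opposite directions, with no overlap of the groups in either. SDC2 fell by 2.10 (95% interval -3.07 to -1.13, adjusted p = 0.0404 by limma), but 2 of its LOX-PP arrays were not above background, the call was lost in 9 of 14 alternatives and the difference was -0.97 under normexp. Leaving out any 1 array except LOX-PP replicate 2 gave an adjusted p from 0.0561 to 0.173 by limma. Like FGFR1 it lies on chromosome 8.

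GPC4 (glypican 4), a carrier of heparan sulfate tied to the membrane by a lipid anchor, read 2.59, 2.64 and 2.32 in the control and 0.11, 0.85 and 0.37 in the LOX-PP arrays. All arrays were above background, and the LOX-PP arrays were lower by more than the whole range of either group. GPC4 fell by 2.20 (95% interval -2.82 to -1.58, adjusted p = 0.00778 by limma), or 4.60-fold, and like FGF13 it lies on chromosome X. Its adjusted p was 0.0633 without control replicate 1 and 0.0552 without control replicate 2. The list's members with the highest signal were enzymes that build or modify the chain, and they did not pass. EXT2, a polymerase of the chain, differed by -0.77, NDST1, which adds sulfate to nitrogen, by -0.47, and HS6ST1, a sulfotransferase, by -0.08, with adjusted p from 0.229 to 0.929 by limma.

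Among the co-receptors and binding proteins, 3 of 6 genes were tested and 1 passed, beside 3.71% of all genes higher and 3.37% lower. FGFBP3, a secreted protein that binds FGF2 and releases it from the matrix, read 0.43, 0.40 and -0.03 in the control and -1.34, -1.51 and -1.41 in the LOX-PP arrays. The LOX-PP arrays lay close together and below all of the control arrays. FGFBP3 fell by 1.81 (95% interval -2.34 to -1.28, adjusted p = 0.00936 by limma), or 3.51-fold, with an adjusted p of 0.0773 without control replicate 1 and 0.0655 without control replicate 2. FGFBP2, named as one of this family though it is better known from killer lymphocytes, differed by 0.40 with an adjusted p of 0.422 by limma.

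**Figure D4:**
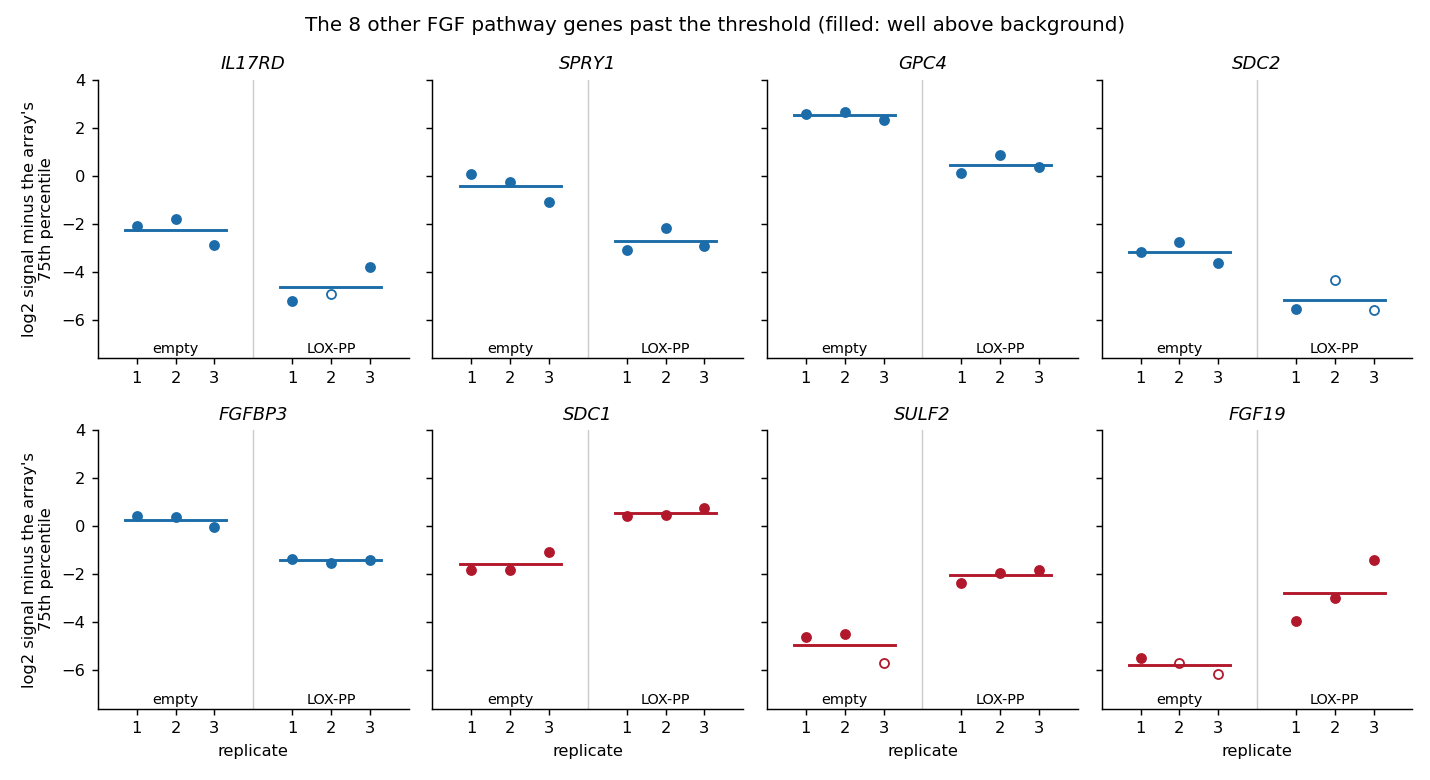
Log2 signal minus the 75th percentile of the array (vertical axis) of the 8 other pathway genes with an adjusted p under 0.05, on each of the 3 control (empty) and 3 LOX-PP arrays (horizontal axis, by replicate). Blue genes were lower and red genes higher in LOX-PP cells, bars are group means, and filled points are spots well above background. In each gene the groups do not overlap, and FGF19 has 1 filled point among the control arrays.

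Downstream of the receptor, the transcripts of 11 tested adaptors and effectors did not pass the test in either direction. Their median difference was -0.31, with a range from -0.85 to 0.03, and 10 were below the median of all probes. SHC1, an adaptor of many receptors, differed by -0.15 (95% interval -0.61 to 0.31), GRB2, which links receptors to RAS activation, by -0.36 (95% interval -0.92 to 0.20), and the phosphatase PTPN11 by -0.64 (95% interval -1.42 to 0.13). Of 11 tested feedback regulators, 2 fell and 9 did not pass, beside 3.71% of all genes higher and 3.37% lower. The median difference of the 11 was -0.67, and 8 were below the median of all probes. Whether the list differed from the others was not tested. SPRY1 (Sprouty 1), an inhibitor of receptor signalling to ERK, read 0.06, -0.25 and -1.08 in the control and -3.09, -2.16 and -2.94 in the LOX-PP arrays. It fell by 2.43 (95% interval -3.35 to -1.52, adjusted p = 0.021 by limma), with the groups more than 1 log2 unit apart at their closest. Without control replicate 1, control replicate 2 or LOX-PP replicate 3 its adjusted p was 0.106, 0.109 or 0.0673.

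IL17RD (Sef), a membrane protein that inhibits FGF signalling, read -2.09, -1.79 and -2.89 in the control and -5.22, -4.92 and -3.79 in the LOX-PP arrays. LOX-PP replicate 2 was not above background. IL17RD fell by 2.51 (95% interval -3.59 to -1.43, adjusted p = 0.0316 by limma), and the call was lost in 8 of 14 alternatives. Its adjusted p was 0.149 and 0.143 without control replicates 1 and 2, and 0.0584 and 0.0918 without LOX-PP replicates 1 and 2. The feedback genes with the highest signal did not pass, with DUSP6, the cytosolic ERK phosphatase, at 0.37 (95% interval -0.37 to 1.10), DUSP4, a nuclear phosphatase of the same family, at -0.27 and SPRY4 at -0.13. SPRY1 and SPRY4 thus stood at -2.43 and -0.13, and whether the 2 differ was not tested.

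None of the 11 transcripts that rise when ERK is active passed the test, and 5 had differences under that of the median probe. The median difference of these 11 was 0.34, with a range from -1.07 to 1.03. DUSP6, counted above with the feedback regulators and not among these 11, is also one of the best known ERK targets. It read 5.005, 5.19 and 4.76 in the control and 6.07, 5.12 and 5.24 in the LOX-PP arrays. EGR1, an immediate early transcription factor, read 2.81, 3.06 and 3.10 in the control and 4.31, 3.27 and 3.59 in the LOX-PP arrays. In both genes LOX-PP replicate 1 was the highest array. The groups overlapped in DUSP6 and did not in EGR1, beside 29.5% of all tested probes without overlap. Others of the 11 were also without overlap, some higher and some lower. Whether this list differed from the others was not tested. EGR1 differed by 0.60 (95% interval -0.13 to 1.33, adjusted p = 0.235 by limma), MYC by -0.53 (95% interval -1.13 to 0.08) and IER3 by 0.39 (95% interval -0.32 to 1.09).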

How the data were processed

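RNA of 6 cultures was hybridised in 1 colour (Cy3) to Agilent SurePrint G3 arrays. The authors deposited spot intensity from Feature Extraction 10.7, with a background-corrected signal and flags. The processed log2 values they also deposited match, within 0.02 for 99.9% of 50599 probes, the log2 signal less its array's 75th percentile, centred per probe. The normalization is not given in the sources used here. Here control and outlier spots were dropped, replicate spots of a probe were averaged as log2, and the 75th percentile was taken off. Probes well above background on at least 3 arrays (32606) were tested with limma 3.58.1 in R 4.3.3, without a block, with Benjamini-Hochberg adjustment over all of them at 0.05. Names came from a RefSeq table, by accession (28170 probes), whose assembly differs from the array design's, so genes have chromosomes and no coordinates. All 10 members with every probe, the pathway genes past the threshold and up to 3 further genes a list with the highest mean signal are named, where values add to the account. The members and lists were chosen with earlier results of these data known. The fit was tested on simulated data. Alternatives were quantile normalization, the median of bright probes, normexp (offset 50), the authors' values, 2 filters on dim probes, the slide and the replicate number as blocks, the methods' t-test and leaving out each array.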

Additional observations from a re-analysis of the deposited data

How the results depend on the processing

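The 1848 probes past the threshold became 516 without a filter on dim probes, 895 with a replicate block, 569 by the methods' t-test and 407 to 2067 leaving out 1 array, where 5 samples remain. The 1 FGF or FGFR probe past it became 0 without a filter, 0 with the replicate block, 0 by the methods' t-test, 2 with the slide as a block and 0 to 2 leaving out 1 array. Among the 64 other pathway genes tested, the count of 8 became 3 without a filter and 2 by the methods' t-test. Leaving out 1 array it was 1 to 6, with 1 left without control replicate 1 and 1 without control replicate 2. By the methods' t-test FGFBP3 alone of the 8 kept its call (adjusted p = 0.0381), so that count includes a gene outside them. FGF13 had adjusted p of 0.108 without a filter, 0.0899 with the replicate block and 0.0657 by the methods' t-test. With the replicate block the other pathway genes counted 6, FGF19 and IL17RD being lost. The numbers do not pair the samples: deviations of same-numbered arrays correlated at 0.27, -0.39 and 0.23, and 1 of 3 control replicates correlated best with its own number. The slide as a block gives the values without LOX-PP replicate 1. Some differences changed sign, none of them past the threshold in the main analysis. Under quantile normalization the 2 FGFR1 probes stood at 0.0695 and 0.0757, the brighter FGFR3 probe at 0.19, FGF7 at -0.0786, HS6ST1 at 0.16, SHC1 at 0.0287 and SPRY4 at 0.0840. FGF7 was at -0.11 and FGFRL1 at -0.0259 without a filter, FGF22 at 0.0561 under normexp, and with the slide as a block FGF22 was at 0.27 and FGFR4 at 0.0220. Leaving out 1 array the ranges were -0.57 to 0.00807 and -0.76 to 0.27 for the FGFR1 probes, -0.34 to 0.13 for the brighter FGFR3 probe, -0.67 to 0.0220 for FGFR4, -0.0368 to 0.24 for FGF7, -0.28 to 0.27 for FGF22, -0.0431 to 1.21 for FGF21, -0.18 to 0.45 for FGFRL1, -0.25 to 0.13 for HS6ST1 and -0.43 to 0.0607 for SPRY4. Over all genes named, 523 alternatives kept direction and side of the threshold, 48 lost a call, 2 gained one and 33 changed sign. FGFR2, FGF19, SDC2 and IL17RD were not above background on some arrays, while FGF13, GPC4, SDC1 and FGFBP3, above it on all 6, also lost their calls without 1 control array.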
